A study of Homo sapiens with 12 samples.

Results

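The miR-143 and miR-145 cluster is a pair of neighbouring microRNA genes on human chromosome 5 that give 4 mature strands, hsa-miR-143-3p, hsa-miR-143-5p, hsa-miR-145-5p and hsa-miR-145-3p. These 4 strands were taken by name, and all 4 were listed in each of the 12 libraries, among 2656 microRNA names in all. The prefix hsa, for human, is left out from here on. Small RNA had been sequenced from AC16 cells and from exosomes, the small vesicles that cells release, in 4 groups of 3 libraries each. The groups were exosomes named Ang, exosomes named Con, whole cells named Ang and whole cells named Con. AC16 is an established human line made by fusing adult ventricular cardiomyocytes with a virus-transformed fibroblast line, so its cells carry both origins. The headers of the Ang files read AngII, an abbreviation that the labels do not expand, and no dose or duration was found in them. The study's design text names miRNAs in exosomes of hypertrophic cardiomyocytes as its question. Cell RNA was taken with the miRNeasy Micro kit and exosome RNA with the exoRNeasy Maxi kit, so the compartment and the kit cannot be told apart. The labels do not say whether the 3 replicates of a group were separate cultures, and p-values therefore measure only the spread between these libraries.

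A microRNA is cut from a hairpin precursor as a pair of strands, named 5p and 3p after the arm they come from, and usually one strand is loaded into Argonaute while the other is degraded. The loaded strand pairs with messenger RNAs mainly through its seed, the bases 2 to 8. miR-143 and miR-145 are made from one primary transcript, whose transcription in heart and smooth muscle depends on serum response factor and its coactivator myocardin. Their known targets include KLF4, KLF5 and ELK1, factors that hold smooth muscle cells in a proliferating state, and in mice the cluster is needed for the full contractile phenotype of arterial smooth muscle. Both are also abundant in fibroblasts and other mesenchymal cells.

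The hairpins are shown because the results compare the strands that each of them releases. The sequences are those of RefSeq (GRCh38.p14), which matched all 4 members and 2367 of the 2656 names. Capitals mark the 5p strand and then the 3p strand within each hairpin.
MIR143 hairpin: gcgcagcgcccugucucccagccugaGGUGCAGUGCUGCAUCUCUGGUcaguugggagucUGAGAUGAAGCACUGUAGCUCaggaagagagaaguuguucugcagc
MIR145 hairpin: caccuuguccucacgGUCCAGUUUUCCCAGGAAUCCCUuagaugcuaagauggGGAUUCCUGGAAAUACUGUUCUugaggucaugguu

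The mature strands follow, with the seed in capitals, because the seed decides which other microRNAs could share their targets.
miR-143-3p: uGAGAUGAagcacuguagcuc
miR-143-5p: gGUGCAGUgcugcaucucuggu
miR-145-5p: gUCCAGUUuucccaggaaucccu
miR-145-3p: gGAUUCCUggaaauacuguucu

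The 4 strands carry 4 different seeds, so none of them stands in for another by its seed. Among the names with a sequence, the seeds of miR-143-5p, miR-145-5p and miR-145-3p were found in no other name. Names without a sequence could not be searched, so further names may share any of the 4 seeds. The seed GAGAUGA of miR-143-3p was shared by miR-4770 from chromosome X and miR-6088 from chromosome 19, shown here for comparison.
miR-4770: uGAGAUGAcacuguagcu
miR-6088: aGAGAUGAagcgggggggcg

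All 18 bases of miR-4770 occurred in the same order within the 21 bases of miR-143-3p once gaps were allowed, and 12 matched without gaps. Reads of these names may be hard to separate, which was not tested.

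In GRCh38 the MIR143 hairpin lies at chr5:149428918-149429023 and the MIR145 hairpin at chr5:149430646-149430733, both on the plus strand with 1622 bases between them. Both lie within CARMN, a long non-coding RNA gene at chr5:149406689-149432835 that is known as the host of the cluster. In its transcript CARMN-209, which has 5 exons in GENCODE release 29, MIR143 lies in exon 4 (chr5:149428883-149429039) and MIR145 in intron 4 (chr5:149429040-149430914). The mature strands are at chr5:149428944-149428965 (miR-143-5p), chr5:149428978-149428998 (miR-143-3p), chr5:149430661-149430683 (miR-145-5p) and chr5:149430699-149430720 (miR-145-3p).

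The libraries held 697049 to 1029883 unique molecular identifiers (UMIs, 1 per captured molecule) in exosomes and 413513 to 528844 in cells. Levels are given as CPM, the UMI count per 1000000 UMIs of the library, and 3 counts, the upper limit that a count of 0 allows, were worth 2.91 to 4.30 CPM in exosomes and 5.67 to 7.25 CPM in cells. The 10 most abundant names took 45.3% to 45.7% of UMIs in exosomes Ang and 39.0% to 40.3% in exosomes Con, against 22.7% to 23.3% in cells Ang and 22.9% to 24.2% in cells Con. Exosomes Con replicate 1 and cells Ang replicate 2 stood apart from their groups: the chi-square of counts per degree of freedom was 6.57 and 10.6 against the other exosomes Con libraries, which differed from each other by 1.91, and 4.0 and 4.37 against the other cells Ang libraries, which differed by 1.99. Of the cardiac markers, miR-1-3p was near the floor at 5.73 ± 1.59 CPM in cells Ang and 11.9 ± 4.98 CPM in cells Con (SD, n = 3 each), while miR-208a-3p, made from a cardiac myosin gene, had 152 to 177 CPM in cells Ang and 202 to 252 CPM in cells Con.

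miR-143-3p was the most abundant strand of the cluster in every library, and in CPM it was several times scarcer in exosomes than in cells. It is the strand of the hairpin to which most described targets of miR-143 belong. It had 102, 141 and 98.8 CPM in exosomes Ang and 59.2, 107 and 118 CPM in exosomes Con. In cells it had 1001, 1112 and 954 CPM with Ang and 959, 952 and 910 CPM with Con. Every exosome library lay below every cell library, and within each compartment the Ang and Con libraries overlapped. Such a separation in CPM was common, with exosomes lower for 72.4% of names tested with Ang and 68.1% with Con. By rank it was the 418th to 469th most abundant name in exosomes Ang and the 476th to 599th in exosomes Con, against the 182nd to 210th in cells Ang and the 207th to 219th in cells Con.

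miR-145-5p, the strand that carries the described targets of miR-145, was the second most abundant member. It had 24.4, 20.9 and 29.3 CPM in exosomes Ang and 34, 27 and 33 CPM in exosomes Con. Its levels in cells were 106, 60.5 and 93.6 CPM with Ang and 68.1, 77.5 and 66 CPM with Con. The exosome libraries again lay below all cell libraries in CPM, as they did for most names tested. The Ang and Con groups overlapped in both compartments, and cells Ang replicate 2 was the lowest cell library for this strand while being the highest for miR-143-3p.

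The other strands were rare. miR-143-5p had 7.17, 12.5 and 7.82 CPM in exosomes Ang (5, 12 and 8 UMIs) and 8.74, 5.63 and 8.24 CPM in exosomes Con (9, 5 and 8 UMIs). In cells it had 26.5, 31.4 and 27.3 CPM with Ang and 26.5, 25.2 and 18.9 CPM with Con, from 8 to 14 UMIs in each library. The exosome groups overlapped, and the cell groups touched at 26.5 CPM, the lowest Ang library and the highest Con library being separated in the next digit.

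miR-145-3p was the scarcest member on average in every group, although in cells Ang it and miR-143-5p had 40 UMIs each. It had 4.30, 5.22 and 3.91 CPM in exosomes Ang, from 3, 5 and 4 UMIs, and 5.83, 5.63 and 6.18 CPM in exosomes Con, from 6, 5 and 6 UMIs. In cells it had 18.3, 24.2 and 40.9 CPM with Ang and 15.1, 29.1 and 16.5 CPM with Con. The exosome groups did not overlap, exosomes Ang being lower, but the pooled levels of 4.48 CPM in exosomes Ang and 5.88 CPM in exosomes Con had exact 95% Poisson intervals of 2.32 to 7.83 and 3.43 to 9.42 CPM, which cover counting error only. Among the 1199 names tested between these groups, 52.4% had groups that did not overlap and 36.3% did so with exosomes Ang lower.

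**Figure D1:**
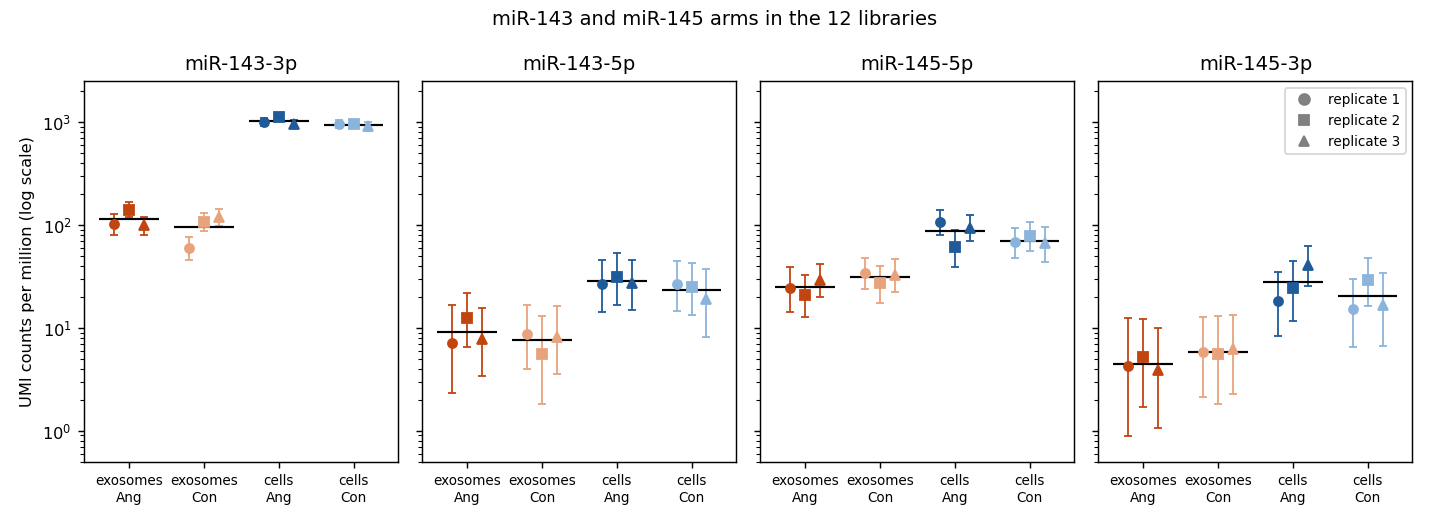
Level of each strand in CPM (log axis) in every library of the 4 groups; points are libraries, the marker shape gives the replicate, whiskers are exact 95% Poisson intervals of the count and black lines are group means. All 4 strands sit lower in exosomes than in cells on this scale, as do most names tested, and miR-143-3p, at 59.2 to 141 CPM in exosomes and 910 to 1112 CPM in cells, has the widest gap.

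In each group the order of the strands by mean level began with miR-143-3p and miR-145-5p. Over groups, miR-143-3p averaged 114 ± 23.5 CPM in exosomes Ang, 94.9 ± 31.4 in exosomes Con, 1022 ± 81.6 in cells Ang and 940 ± 26.1 in cells Con (SD, n = 3 each), and neighbours in that order within a compartment did not differ beyond their spread. miR-145-5p averaged 24.9 ± 4.25, 31.3 ± 3.76, 86.7 ± 23.6 and 70.5 ± 6.13 CPM in the same 4 groups. miR-143-5p was above miR-145-3p by mean in every group, by a margin that varied: miR-143-5p averaged 9.18 ± 2.93 CPM and miR-145-3p 4.48 ± 0.67 CPM in exosomes Ang, with ranges that did not overlap, while in cells Ang they averaged 28.4 ± 2.65 and 27.8 ± 11.7 CPM and overlapped. Capture in library preparation differs between sequences, so these orders describe UMIs and not molecules in the sample.

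The first comparison set exosomes against cells, once for Ang and once for Con, and 1 of the 4 members, miR-143-3p, passed the test in both. Counts were compared with edgeR's quasi-likelihood test after TMM scaling, which sets the bulk of names to no difference, with Benjamini-Hochberg adjustment over all names tested. With this scaling, miR-143-3p was 2.41-fold lower in exosomes Ang than in cells Ang (log2 difference -1.27, SE 0.14, edgeR adjusted p = 2.12e-07). It was 3.49-fold lower in exosomes Con than in cells Con (log2 difference -1.80, SE 0.19, edgeR adjusted p = 6.20e-06), and 2 of 2 compartment comparisons thus had the same direction. Without exosomes Con replicate 1, the library that stood apart, the Con difference was -1.55 (edgeR adjusted p = 6.42e-12). Most names differed between the compartments: 83.3% of 1627 names passed the threshold of 0.05 with Ang, 38.2% of all tested being higher and 45.1% lower in exosomes, and 83.3% of 1710 names passed with Con, 39.2% being higher and 44.2% lower. Of the names tested, 34.7% had a lower log2 difference than miR-143-3p with Ang and 28.2% with Con.

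The other 3 strands did not pass in either comparison under TMM scaling. miR-145-5p had a log2 difference of 0.07 (SE 0.24, edgeR adjusted p = 0.784) between exosomes Ang and cells Ang and of 0.35 (SE 0.18, edgeR adjusted p = 0.109) between exosomes Con and cells Con. miR-143-5p had 0.29 (SE 0.33) with Ang and -0.13 (SE 0.30) with Con, and miR-145-3p had -0.76 (SE 0.44) with Ang and -0.28 (SE 0.36) with Con, with edgeR adjusted p between 0.124 and 0.753. The SEs were 0.30 to 0.44 for miR-143-5p and miR-145-3p, which rest on few UMIs, against 0.18 and 0.24 for miR-145-5p. For all 3 strands, a miss of the threshold does not show equal levels.

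These differences depended on the scaling. Scaled by library totals alone, the median of all names moved by -1.88 on the log2 scale between exosomes Ang and cells Ang and by -1.51 between exosomes Con and cells Con, and all 4 members were then lower in exosomes and passed. So did 1173 of 1627 names tested with Ang and 1151 of 1710 with Con. miR-143-3p then had -3.16 with Ang and -3.32 with Con, miR-145-5p -1.81 and -1.17, miR-143-5p -1.58 and -1.62, and miR-145-3p -2.61 and -1.77, with edgeR adjusted p of at most 8.91e-04. The sign of miR-145-5p turned in both comparisons and that of miR-143-5p with Ang. The share of calls that were higher in exosomes was 45.8% with Ang and 47.0% with Con under TMM scaling, and 20.2% and 23.3% with library totals. In CPM, which uses totals, all 4 members had exosome libraries below all cell libraries, as did 72.4% of names tested with Ang and 68.1% with Con. Summed over libraries, miR-143-3p had 307 UMIs in exosomes Ang against 1440 in cells Ang, an 8.86-fold lower level (95% counting interval 7.83 to 10.1), and 271 in exosomes Con against 1384 in cells Con, a 10.1-fold lower level (8.81 to 11.49). These intervals cover counting error only and leave out the spread between libraries. In exosomes that spread was larger than counting error. The chi-square over the 3 libraries was 9.04 in exosomes Ang and 21.0 in exosomes Con, against 5.86 in cells Ang and 0.66 in cells Con.

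**Figure D2:**
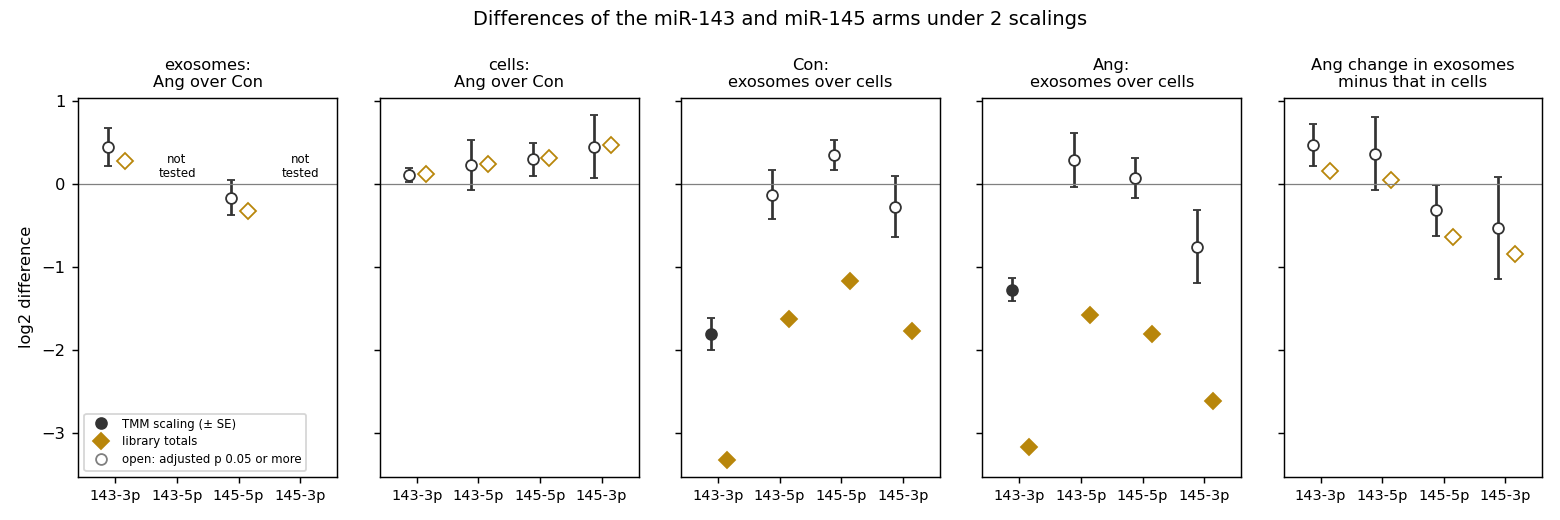
Log2 difference of each strand (y axis) in the 5 comparisons, under TMM scaling (circles, ± SE) and scaled by library totals (diamonds); filled symbols have an edgeR adjusted p under 0.05. miR-143-3p is the strand filled under both scalings between exosomes and cells, and none is filled between Ang and Con.

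Because a ratio of 2 strands in the same library does not depend on its scaling, the strands were also compared with each other. miR-143-3p over miR-145-5p was 4.09, 6.61 and 3.33 in exosomes Ang and 9.36, 18.1 and 10.1 in cells Ang. It was 1.73, 3.9 and 3.55 in exosomes Con and 13.9, 12.1 and 13.6 in cells Con. All exosome libraries lay below all cell libraries, so miR-143-3p was in lower proportion to its neighbour in each exosome library than in any cell library. Most names differed between the compartments, 83.3% of those tested with Ang and 83.3% with Con under TMM scaling. The share of other pairs of names that would separate in this way was not computed. The geometric mean was 4.48 in exosomes Ang against 12 in cells Ang, 2.67-fold lower (log2 difference -1.42), and 2.88 in exosomes Con against 13.2 in cells Con, 4.57-fold lower (log2 difference -2.19). Each had p = 0.1 in a two-sided exact permutation test, the smallest value that 3 against 3 libraries can give, and 0.24 after Benjamini-Hochberg adjustment over 12 ratio tests. Without exosomes Con replicate 1, whose ratio of 1.73 was the lowest, the Con difference was -1.82.

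The strands of the MIR143 hairpin differed in the same way. miR-143-3p over miR-143-5p was 13, 10.8 and 11.9 in exosomes Ang and 36.4, 34.1 and 33.8 in cells Ang, while it was 6.47, 17.4 and 13.6 in exosomes Con and 35, 36.4 and 45.5 in cells Con. The exosome and cell groups were apart in both pairs, and the dominant strand was less dominant in exosomes. The ratio was 2.92-fold lower with Ang (log2 difference -1.55) and 3.36-fold lower with Con (log2 difference -1.75), with the same exact permutation p of 0.1 and adjusted value of 0.24. In exosomes the lower strand rested on 5 to 12 UMIs in each library. Among 387 hairpins with both strands counted, 40 had a higher ratio of dominant to minor strand than miR-143 in cells Ang and 40 in cells Con, against 117 in exosomes Ang and 115 in exosomes Con. The fall itself was not rare: 93 of the 387 hairpins had a lower change in this ratio than miR-143 with Ang and 87 with Con, and the lower quartile of all hairpins was -1.48 and -1.66.

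The strand ratio of the MIR145 hairpin was not lower in exosomes. miR-145-5p over miR-145-3p was 5, 3.73 and 6.78 in exosomes Ang and 5.53, 2.43 and 2.26 in cells Ang, which overlapped (log2 difference 0.69, exact permutation p = 0.3). It was 5.46, 4.45 and 5 in exosomes Con and 4.29, 2.61 and 3.8 in cells Con, which did not overlap (log2 difference 0.50, exact permutation p = 0.1, adjusted 0.24). The direction was thus towards a higher ratio in exosomes, opposite to miR-143, on 3 to 6 UMIs of miR-145-3p in each exosome library, and the difference between the hairpins was not tested. This change was ordinary among the 387 hairpins: 229 had a lower change than miR-145 with Ang and 220 with Con. The medians of all hairpins were 0.15 and 0.17.

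**Figure D3:**
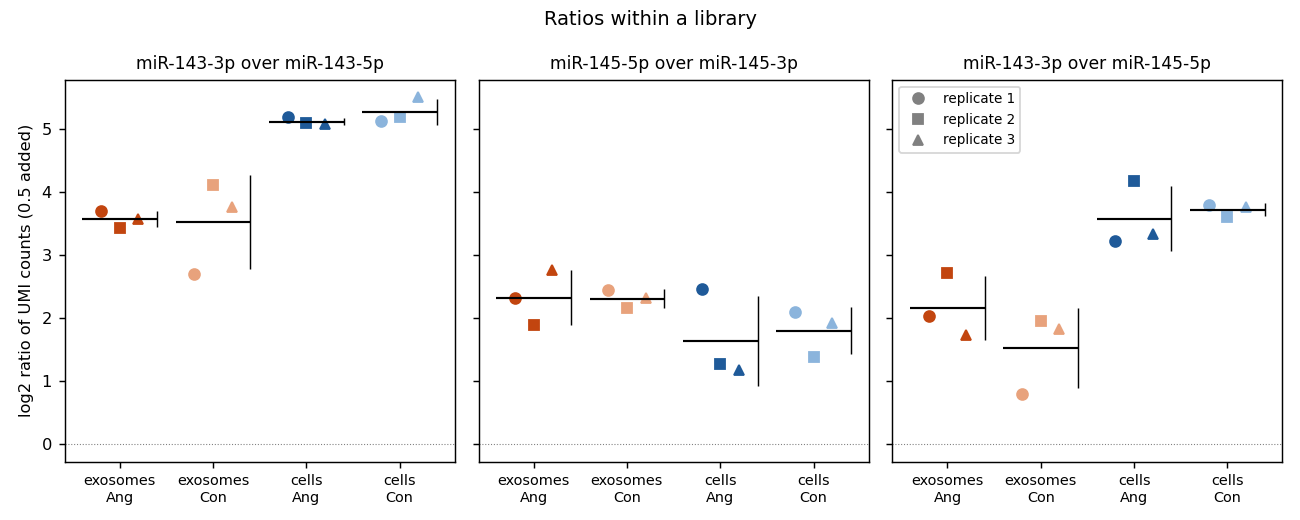
Log2 ratio of UMI counts (y axis, 0.5 added to each count) of 2 strands within each library, by group; points are libraries, black lines are means and thin vertical lines 1 SD. The ratios of miR-143-3p to miR-143-5p and to miR-145-5p lie lower in all 6 exosome libraries than in all 6 cell libraries, and the miR-145 strand ratio does not.

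The makeup of the cluster differed between compartments. miR-143-3p gave 74.4 ± 3.9% of the cluster's UMIs in exosomes Ang and 66.7 ± 10.2% in exosomes Con, against 87.7 ± 2.6% in cells Ang and 89.2 ± 1.2% in cells Con (SD, n = 3 each). miR-145-5p gave 16.8 ± 4.7% in exosomes Ang and 23.3 ± 7.1% in exosomes Con, against 7.5 ± 2.3% in cells Ang and 6.69 ± 0.42% in cells Con. The lowest share of miR-143-3p, 54.9%, was in exosomes Con replicate 1. Together the 4 strands held 0.0152 ± 0.0024% of all UMIs in exosomes Ang, 0.0140 ± 0.0029% in exosomes Con, 0.117 ± 0.0058% in cells Ang and 0.105 ± 0.0038% in cells Con. Exosome and cell libraries did not overlap in this share (exact permutation p = 0.1 with Ang and with Con, 0.133 adjusted over 4 tests). Of single names tested, 72.4% with Ang and 68.1% with Con likewise lay apart in CPM with exosomes lower.

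The second comparison asked what Ang did to the cluster, and no member passed the test in exosomes or in cells. In exosomes 2 of the 4 members were tested, the others falling below the filter on low counts, and 0 were called where 34.0% of 1199 names were, 16.9% higher and 17.1% lower. miR-143-3p had a log2 change of 0.44 (SE 0.23, edgeR adjusted p = 0.168), and miR-145-5p had -0.17 (SE 0.21, edgeR adjusted p = 0.622). Both values moved with single libraries. Without exosomes Con replicate 1 they were 0.22 (edgeR adjusted p = 0.373) and -0.07, without exosomes Ang replicate 2 they were 0.31 and 0.003, and miR-143-3p had 0.61 without exosomes Con replicate 3. With no filter, miR-143-5p had 0.39 (SE 0.39, edgeR adjusted p = 0.640) and miR-145-3p -0.28 (SE 0.48, edgeR adjusted p = 0.812). Exosomes Con replicate 1 also had lower sums of some cell type markers than its group, but not of all. Of 7 blood cell markers it had 552 CPM, against 1194 and 1279 CPM in the other exosomes Con libraries. Exosomes Ang had 346 to 643 CPM of them. Of the liver marker miR-122-5p it had 8.74 CPM, against 123 and 157 CPM, and of endothelial markers 130 CPM, against 434 and 473 CPM. Its epithelial sum of 231 CPM lay between the 204 and 233 CPM of the other exosomes Con libraries. Its cardiac muscle sum of 68.94 CPM likewise lay between 68.65 and 82.36 CPM. None of the 7 blood cell markers was at 0 over a whole group, and the part of these markers in the values of the cluster was not tested.

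In cells all 4 members were tested and 0 were called, where 6.56% of 1630 names were, 2.76% higher and 3.80% lower. The log2 changes were 0.11 for miR-143-3p (SE 0.09, edgeR adjusted p = 0.565), 0.23 for miR-143-5p (SE 0.30, edgeR adjusted p = 0.782), 0.30 for miR-145-5p (SE 0.20, edgeR adjusted p = 0.464) and 0.45 for miR-145-3p (SE 0.38, edgeR adjusted p = 0.577). The median of all names was 0.02, and 62.45%, 76.75%, 82.09% and 90.12% of names had a lower change than these members, in the same order. As none was called, this shows no joint rise. The summed share of the cluster, 0.115%, 0.123% and 0.112% in cells Ang, lay above that in cells Con, 0.107%, 0.108% and 0.101%. The separation of this share had an exact permutation p of 0.1, the smallest possible, and 0.133 after adjustment. On average 87.7% of the sum in cells Ang and 89.2% in cells Con was miR-143-3p, whose own Ang and Con libraries overlapped. How often other sums would separate was not computed. Groups did not overlap in CPM for 22.4% of the names tested and for miR-143-5p among the 4 members, which was among the 12.5% that were higher with Ang. Cells Ang replicate 2 had 6895 CPM of blood cell markers and 4665 CPM of endothelial markers, against 2041 and 2172 CPM and 524 and 517 CPM in the other cells Ang libraries. Without it miR-145-5p had 0.47 (edgeR adjusted p = 0.177) and miR-143-3p 0.03 (edgeR adjusted p = 0.908).

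The change with Ang was not shown to differ between exosomes and cells for any strand. The interaction was 0.47 for miR-143-3p (SE 0.25, edgeR adjusted p = 0.268), 0.36 for miR-143-5p (SE 0.44, edgeR adjusted p = 0.744), -0.32 for miR-145-5p (SE 0.31, edgeR adjusted p = 0.593) and -0.53 for miR-145-3p (SE 0.61, edgeR adjusted p = 0.667). Of 1835 names, 15.1% passed, 9.97% with a higher and 5.18% with a lower change in exosomes. miR-143-3p over miR-145-5p also overlapped between Ang and Con, in exosomes (log2 difference 0.64, exact permutation p = 0.4) and in cells (-0.14, exact permutation p = 0.8), and so did both strand ratios.

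Other names whose levels ran most like those of miR-143-3p over the 12 libraries were looked for among 1820 names with a mean of at least 10 CPM, by the root mean square difference of log2(CPM + 1) after centring each name. The nearest were miR-199b-3p at 0.09, miR-199a-3p at 0.15, miR-335-3p at 0.16 and miR-323a-3p and miR-421 at 0.19, against a median of 1.04 over all names. The nearest pair carries identical mature sequences, so how their reads were divided between the names is uncertain.
miR-199b-3p: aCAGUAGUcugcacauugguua
miR-199a-3p: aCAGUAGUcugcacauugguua

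miR-199b-3p, a strand known from fibroblasts and other mesenchymal cells, had 323, 403 and 296 CPM in exosomes Ang, 186, 293 and 401 in exosomes Con, 2919, 3166 and 3028 in cells Ang and 2865, 2595 and 2802 in cells Con. It shared with miR-143-3p the low value in exosomes Con replicate 1 and the high value in cells Ang replicate 2. As it was chosen for likeness over these same libraries, this sharing is no separate result.

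miR-145-5p was not among the names most like its neighbour. It was 895th in likeness to miR-143-3p, at 1.02, close to the median name. Its own nearest names were miR-6833-5p and miR-411-3p at 0.21, miR-6873-3p at 0.21, miR-6069 at 0.23 and miR-4669 at 0.24, none of which was on the list for miR-143-3p. These profiles share libraries and depth.

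**Figure D4:**
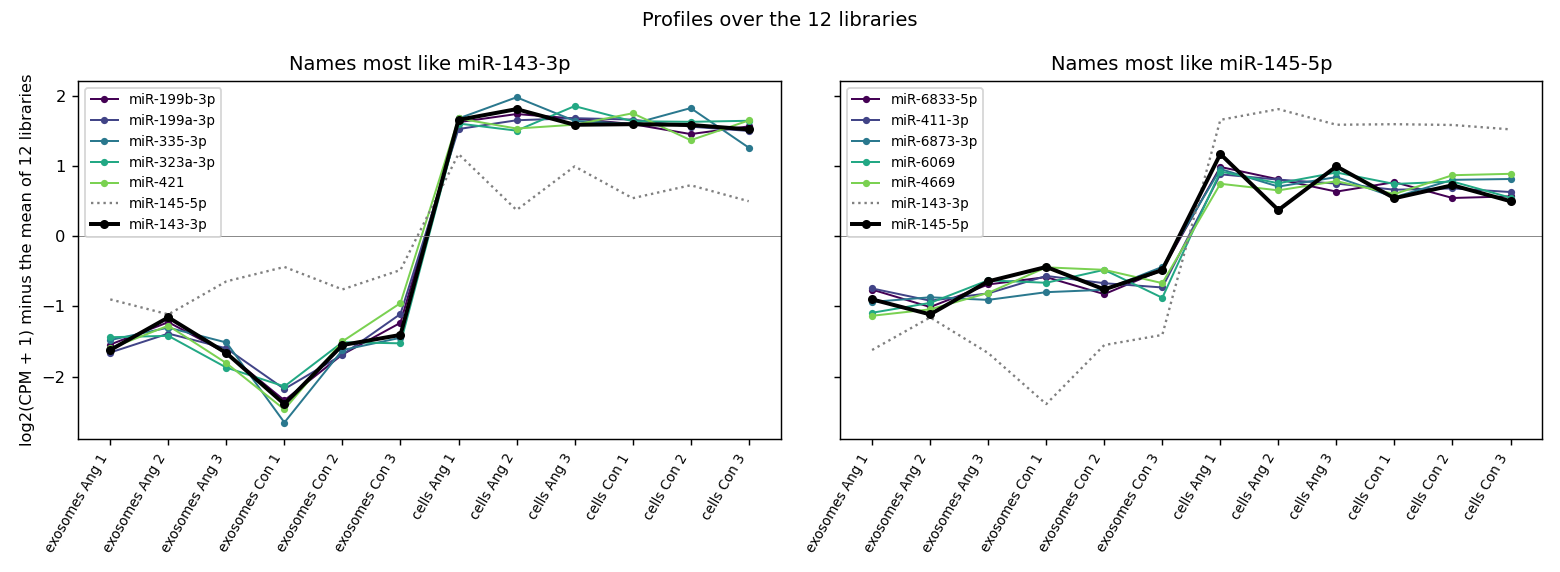
Log2(CPM + 1) minus its mean over the 12 libraries (y axis) for miR-143-3p (left, black) and miR-145-5p (right, black), each with its 5 most similar names in colour and the other member dotted; lines join the libraries to show each profile and imply no order. The step between exosomes and cells is larger for miR-143-3p, and its low point is exosomes Con replicate 1.

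Of the names that share the miR-143-3p seed, miR-6088 was the abundant one in exosomes. It averaged 540 ± 47.4 CPM in exosomes Ang and 649 ± 31.5 CPM in exosomes Con, against 1067 ± 29.2 CPM in cells Ang and 907 ± 57.1 CPM in cells Con (SD, n = 3 each). Exosomes thus held more UMIs of miR-6088 than of miR-143-3p, and cells held similar amounts. Under TMM scaling miR-6088 was higher in exosomes, by a log2 difference of 0.91 with Ang (edgeR adjusted p = 1.01e-07) and 1.03 with Con (edgeR adjusted p = 5.84e-07), but it was lower by -0.98 and -0.49 with library totals. miR-4770 averaged 1.70 and 1.73 CPM in exosomes Ang and exosomes Con and 13.2 and 8.76 CPM in cells Ang and cells Con, too few for the count filter.

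The cluster was set beside 2 lists drawn from general knowledge, 16 other microRNAs described in the smooth muscle phenotype and 20 described as abundant in mesenchymal cells. Between exosomes and cells most tested members of both lists were lower in exosomes under TMM scaling. Of the smooth muscle list, 13 of 14 tested members fell and 0 rose in exosomes Ang against cells Ang, where 45.1% of all names fell, with a median log2 difference of -2.45, where the median of all names was -0.31. With Con, 12 of 15 fell and 1 rose, where 44.2% of all names fell, with a median of -2.34, where that of all names was -0.27. Its most abundant member miR-21-5p, a microRNA induced in injured vessels and in cardiac fibroblasts, was 7.87-fold lower in exosomes Ang than in cells Ang and 11.7-fold lower in exosomes Con than in cells Con (edgeR adjusted p = 4.88e-13 and 8.48e-08). The members with the lowest p also included miR-31-5p (log2 difference -2.89 with Ang and -3.49 with Con), miR-424-5p (-3.60 and -5.07), miR-29b-3p, which targets collagen messages (-3.18 with Ang), miR-22-3p (-3.13 with Con) and miR-663a (-1.08 with Con).

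The mesenchymal list was similar, with 15 of 19 tested members lower and 2 higher in each comparison, beside the same 45.1% and 44.2% of all names lower, and medians of -1.76 with Ang and -1.95 with Con. Its most abundant member miR-125b-5p was lower by -1.84 with Ang and -2.08 with Con (edgeR adjusted p = 7.40e-12 and 1.85e-06), miR-27b-3p by -1.82 and -2.58, miR-100-5p by -1.76 with Ang, miR-199a-3p by -1.28 with Ang, and miR-199b-5p and miR-152-3p by -4.47 and -2.38 with Con. miR-382-5p, from the imprinted DLK1-DIO3 locus, was higher in exosomes Con than in cells Con by 1.79 (edgeR adjusted p = 5.87e-09). miR-143-3p, at -1.27 with Ang and -1.80 with Con, therefore lay above the median of both lists, and miR-145-5p, at 0.07 and 0.35, lay near the upper end. With library totals, 14 of the smooth muscle list were lower in each comparison, of 14 tested with Ang and 15 with Con. Of the mesenchymal list, 18 of 19 tested were then lower in each comparison. Among all names, 1173 of 1627 with Ang and 1151 of 1710 with Con were lower under the same scaling.

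**Figure D5:**
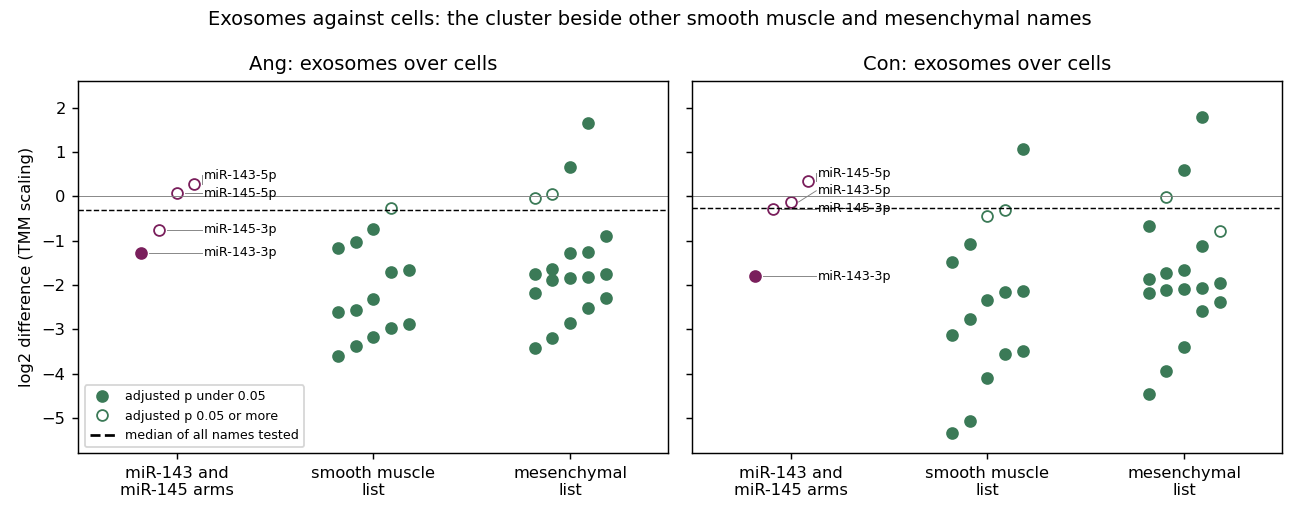
Log2 difference between exosomes and cells (y axis, TMM scaling) of the 4 strands and of the tested members of the smooth muscle and mesenchymal lists, for Ang (left) and Con (right); filled points have an edgeR adjusted p under 0.05 and the dashed line is the median of all names tested. miR-143-3p is filled in both panels at -1.27 and -1.80, and most list members lie below it.

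Of both lists together, 5 of 27 tested members passed between exosomes Ang and exosomes Con, where 34.0% of all names did, 2 of 33 between cells Ang and cells Con, where 6.56% did, and 5 of 34 in the interaction, where 15.1% did. In exosomes, miR-490-3p of the smooth muscle list fell (log2 change -1.18, edgeR adjusted p = 0.0326), 1 of 12 tested. That call was lost on leaving out any library of exosomes Ang or exosomes Con replicate 2, with edgeR adjusted p of up to 0.114. miR-21-5p had 0.53 (edgeR adjusted p = 0.109), and it was called at 0.60 with all 12 libraries in one fit (edgeR adjusted p = 0.0303) and at 0.80 without exosomes Con replicate 3 (edgeR adjusted p = 0.015). In these 2 fits 3 and 4 smooth muscle members and 4 and 5 mesenchymal members rose, against 0 and 2 in the 6 libraries tested without these changes. Of 15 tested mesenchymal members, miR-382-5p (-1.35) and miR-99a-5p (-0.61) fell and miR-214-3p (0.48) and miR-27b-3p (0.59) rose, with edgeR adjusted p of at most 8.51e-03, and miR-125b-5p had -0.01. DESeq2 did not call miR-99a-5p in either compartment and gave no adjusted p for miR-490-3p, so that it called no smooth muscle member lower in exosomes, and library totals ended the call of miR-99a-5p in cells. In cells, 0 of 14 smooth muscle members passed, and of 19 mesenchymal members miR-127-3p (-0.28, edgeR adjusted p = 0.0153) and miR-99a-5p (-0.48, edgeR adjusted p = 0.0432) fell, both calls being lost without cells Con replicate 2 or 3 or cells Ang replicate 1 and each also without 1 further library. The medians of the smooth muscle and mesenchymal lists were 0.21 and 0.09 in exosomes, where that of all names was -0.05, and 0.04 and 0.03 in cells, where that of all names was 0.02. The interaction passed for miR-424-5p (1.41, edgeR adjusted p = 0.0406, 0.119 with library totals, and lost under most of the libraries left out), miR-382-5p (-1.18), miR-214-3p (1.01), miR-127-3p (0.59) and miR-27b-3p (0.70), the last 4 with edgeR adjusted p of at most 5.04e-03, of which miR-127-3p and miR-27b-3p had 0.112 and 0.118 with library totals.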

How the data were processed

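Per the labels, the QIAseq miRNA kit was used for library preparation; it tags each molecule with a UMI. The authors deposited, per the file headers, whole UMI counts per mature microRNA name for each library. Cutadapt and GRCh38 are named in the submitters' processing notes, and no source used here names the aligner, annotation or counter. The 76 names listed in cell files alone, with at most 20 counts each, were taken as 0 in exosomes.

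Counts were tested with edgeR 4.0.16 (filterByExpr, TMM, quasi-likelihood, two-sided, Benjamini-Hochberg, threshold 0.05) in R 4.3.3, in the 6 libraries of each comparison and in all 12 for the interaction. SE was the log2 difference over the root of F. CPM used all UMIs of a library. Strand ratios had 0.5 added to each count, and they and the summed share were compared by exact permutation tests. No source used here says whether replicate numbers pair libraries, and the main tests treated libraries as unpaired. The test was checked on simulated counts in which a minority of names changed, evenly up and down. That check does not cover scaling where most names differ, as between exosomes and cells. The named microRNAs are the 4 members, the 5 most similar names to miR-143-3p and to miR-145-5p, and from each list the members past the threshold where these were 4 or fewer, otherwise the 4 with the lowest p, with the most abundant one. The members and lists were chosen with earlier results of these data known. RLE scaling, library totals, DESeq2 1.42.0, limma-voom 3.58.1, other filters, a replicate block, all 12 libraries in one fit and leaving out each library were tried.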

Additional observations from a re-analysis of the deposited data

How the results depend on the processing

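miR-143-3p stayed lower in exosomes with an adjusted p under 0.05 in every alternative run, from -3.16 to -1.24 with Ang and from -3.32 to -1.74 with Con, and over single libraries left out from -1.46 to -1.13 and from -2.08 to -1.55. With library totals in place of TMM, the Con differences were -1.62 for miR-143-5p, -1.17 for miR-145-5p, -1.77 for miR-145-3p and -0.49 for miR-6088, and the Ang differences were -1.58, -1.81, -2.61 and -0.98 for the same names, because the totals move the median of all names. Totals also moved that median by -0.16 between exosomes Ang and exosomes Con and by -0.31 in the interaction, and RLE by 0.11 in the interaction. The share of calls that were higher was 32.1% with totals and 49.8% with TMM between exosomes Ang and exosomes Con, and in the interaction 29.6% with totals, 76.5% with RLE and 65.8% with TMM. Leaving out 1 library at a time gave 38 to 97 names past the threshold between cells Ang and cells Con, against 107 with all, the count being 38 without cells Con replicate 2 and without cells Con replicate 3 and 70 without cells Ang replicate 1. The same leave-one-out ranges crossed 0 for uncalled values: -0.32 to 0.003 for miR-145-5p between exosomes Ang and exosomes Con, -0.27 to 0.007 for miR-143-5p and -0.43 to 0.13 for miR-145-3p between exosomes Con and cells Con, and -0.01 to 0.47 for miR-143-5p and -0.092 to 0.288 for miR-145-5p between exosomes Ang and cells Ang. Between Ang and Con, the log2 ratio of miR-143-3p to miR-143-5p ranged from -0.37 to 0.34 in exosomes, that of miR-145-5p to miR-145-3p from -0.20 to 0.23 in exosomes and from -0.578 to 0.069 in cells, that of miR-143-3p to miR-145-5p from -0.439 to 0.035 in cells, and the difference in summed share from -0.000307 to 0.00259 percentage points in exosomes. Adding 1 in place of 0.5 gave -0.016 for miR-145-5p over miR-145-3p between exosomes Ang and exosomes Con. miR-125b-5p, at -0.01 between exosomes Ang and exosomes Con, had 0.031 with RLE, 0.031 with DESeq2, 0.026 with limma-voom, 0.022 with the replicate block, 0.064 with all 12 libraries and -0.22 to 0.19 over single libraries left out. Its interaction of 0.19 was -0.13 with totals, -0.083 to 0.399 over single libraries left out and -0.07 without exosomes Con replicate 1 and cells Ang replicate 2, an alternative chosen after seeing the data. The cause was not tested where no reason is given.

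With the replicate number as a block, 398 names passed between exosomes Ang and exosomes Con, 132 between cells Ang and cells Con, 1345 between exosomes Ang and cells Ang, 1398 between exosomes Con and cells Con and 252 in the interaction. In a check of pairing by number, same-numbered libraries had correlations of -0.05 to 0.12, and the highest with another number were -0.06 to 0.09. Not each library correlated best with its own number. These values serve to compare numbers and do not measure how alike whole libraries are. The block changed no call of the 4 members. It lost that of miR-424-5p in the interaction (edgeR adjusted p = 0.0560). At this depth miR-143-5p and miR-145-3p had 3 to 12 UMIs in each exosome library, which limits what their tests can show.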
